A study of Mus musculus with 6 samples.

Results

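Large exons, here skipped exon events whose middle exon is 400 bases or longer, were taken from the deposited table of skipped exons by length alone, with introns of any size on either side. The table holds 46394 skipped exon events, and 1390 of them are of this length. They cover 1080 distinct exons of 951 genes, from 400 to 5970 bases long with a median of 727 bases. Of the distinct exons, 354 have at least 1000 bases and 105 have at least 2000 bases. An event is a set of 3 exons, so an exon that can pair with several neighbours is counted in several events. An average of 20 or more reads in each library of both conditions was reached by 1157 of the large events (83.2%), in 913 exons of 807 genes, and these were tested together with all 39173 events that passed. The other 233 large events had too few reads.

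The RNA came from CD4+ T cells of mouse spleen and peripheral lymph nodes, sorted after removal of CD2BP2, also named U5-52K, from T lineage cells. The 3 cKO libraries are U5-52K f/f CD4-Cre tg, with both alleles floxed and the Cre transgene. In the Control group, 2 libraries are U5-52K wt/f CD4-Cre tg, which keep a wild type allele beside Cre, and 1 is U5-52K f/f CD4-Cre-, with floxed alleles and no Cre. CD4-Cre acts from the stage at which thymocytes carry both CD4 and CD8, so the cKO cells studied are those that matured after deletion, and all 6 libraries carry a floxed allele. The study's methods name 3 cKO and 3 control mice for sequencing, and their section on isolating lymphocytes gives adult males. The splicing table gives 3 values per condition without library names, so Control 1 to 3 and cKO 1 to 3 stand for positions in its lists, and the Control position without Cre cannot be told from the others.

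CD2BP2 is a component of the U5 small nuclear ribonucleoprotein, the particle that holds the exon ends during splicing, and it leaves before the spliceosome becomes active. Most vertebrate exons are short and are recognised as units, with factors at the 3' splice site before the exon and the 5' splice site after it bridged across the exon. Exons far above the usual length are rare inside genes. They often hold most of the reading frame of a zinc finger factor, a chromatin protein or a signaling scaffold, so that skipping removes much of the protein.

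The exons that differed most between the conditions are shown by the bases at their junctions, since skipping replaces the junctions on both sides with a new one. In each line the skipped exon is in capitals and its neighbours are in lower case, 5' to 3' on the coding strand, read from the GENCODE M21 transcripts of the genome build GRCm38. The third line of each set is the junction made by skipping, which holds no base of the large exon.
Foxo3, upstream exon into the large exon: tctgcgggctggaagAACTCCATCCGGCAC
Foxo3, large exon into the downstream exon: AAATGGGCAAAGCAGaccctcaaactgacg
Foxo3, junction without the large exon: tctgcgggctggaagaccctcaaactgacg
Prdm2, upstream exon into the large exon: ggggctctgcagaagGTCCAAAAGAAGAGG
Prdm2, large exon into the downstream exon: GCTGAAGGACTTGAGctacagcctccgcct
Prdm2, junction without the large exon: ggggctctgcagaagctacagcctccgcct
Eefsec, upstream exon into the large exon: atccctgccctcaagGTGGTGAAGAAAGTG
Eefsec, large exon into the downstream exon: GGCCTTGTGGAGCGGgtaatggatgactac
Eefsec, junction without the large exon: atccctgccctcaaggtaatggatgactac
Pcmtd1, upstream exon into the large exon: tcttctgcgccttcgGTTTAATTTATTTTT
Pcmtd1, large exon into the downstream exon: TGGGCTTAATTTTAGgtccttttggaataa
Pcmtd1, junction without the large exon: tcttctgcgccttcggtccttttggaataa
Tmem164, upstream exon into the large exon: ggagccgagcagcggATTGGCCAACGGCTC
Tmem164, large exon into the downstream exon: GTCACCATGATGCATatcttcctcctggcc
Tmem164, junction without the large exon: ggagccgagcagcggatcttcctcctggcc
Arhgef1, upstream exon into the large exon: tggcgagactgagagAAGGTGGAAGAGGTG
Arhgef1, large exon into the downstream exon: CACCCGACGAGCCACccctgagcccggaga
Arhgef1, junction without the large exon: tggcgagactgagagccctgagcccggaga

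The last base of the exon is a G in all 4 exons that fell in cKO, those of Foxo3, Prdm2, Eefsec and Pcmtd1. It is C in the exon of Arhgef1 and T in that of Tmem164, the exons that rose. Over the 904 tested large exons found in an annotated transcript, 83.7% end in G, and 62.5% end in AG. Intron bases were not read, since no genome sequence was used.

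The skipped exon table counts 24868626 to 35107256 reads per Control library and 30383046 to 39522842 per cKO library. Cd2bp2 itself, the targeted gene, had 2624, 2602 and 2612 normalized counts in the Control libraries and 884, 873.8 and 738.1 in cKO, a log2 change of -1.65 ± 0.11 (SE, limma, adjusted p = 0.00137). Markers of CD4 T cells summed to 320000 to 374000 normalized counts in Control and 299000 to 326000 in cKO, for the 5 of 6 listed genes with a row. Markers of B cells summed to 7810 to 10900 in Control and 3350 to 6250 in cKO, and those of myeloid cells to 9840 to 14500 and 13500 to 46300. NK cell markers lay at 2230 to 2950 and 3240 to 4840, and CD8 T cell markers at 710 to 1570 and 614 to 916. All listed B, myeloid, NK and CD8 markers were detected in all 6 libraries, and the part of other cells in the splicing values was not tested. In these bulk samples fewer cells of a type and less RNA per cell cannot be told apart.

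Inclusion (Ψ) is the share of transcripts that keep the exon, in percent, from inclusion and skipping reads after each count is divided by the length it can come from. A difference is given as Control minus cKO in points, so that a positive value means more skipping in cKO. Events were called at a false discovery rate (FDR) under 0.01, adjusted over all 39173 events, and a difference of at least 10 points. Of the 1157 large events, 4 were called with lower inclusion in cKO (0.346%), where 0.406% of all tested events were, and 2 with higher inclusion (0.173%), where 0.0893% of all were. At an FDR under 0.05, with no limit on the difference, 20 large events fell (1.73%, against 1.51% of all events) and 3 rose (0.259%, against 0.281% of all). The 3 cKO values lay below the 3 Control values in 113 large events (9.77%) and above them in 28 (2.42%), beside 8.96% and 2.33% of all events. By these counts large exons stood close to the background of all skipped exons. The share called lower depended on the setting. It was 5.29% of large and 2.77% of all events when only events averaging 5 or more reads of the rarer form were tested. An event can pass that limit through its cKO reads alone, so this pair is a description only. With the dispersion prior over all events these shares were 1.38% and 0.789%, and with a trend in the prior 0.691% and 0.406%. With a minimum of 50 reads they were 0.298% and 0.433%. They were 0.259% and 0.327% with reads thinned to the shallowest library. Without 1 library the order went both ways, with 0% and 0.301% without Control replicate 2 and 0.605% and 0.421% without cKO replicate 1.

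The falls were in Foxo3, Prdm2, Eefsec and Pcmtd1, and the exons of Foxo3 and Prdm2 lost 48.2 and 79.4 points. In Foxo3, a forkhead transcription factor held in check by PI3K and Akt signaling that drives genes of quiescence and apoptosis, the exon is chr10:42196466-42197901 (1436 bases, minus strand), exon 3 of 4, with 69.3% of the coding sequence and the stop codon. No skipping read was found in Control, beside 109, 234 and 76 inclusion reads. In cKO there were 3, 24 and 23 skipping reads beside 62, 205 and 198 inclusion reads, so that inclusion was 66%, 44.5% and 44.7% and 100% in each Control library. Mean inclusion was 100% in Control and 51.8% ± 12.3 (SD, n = 3) in cKO, with a FDR of 0.000348. Read from the annotated start codon, the transcript with the exon runs over 672 codons, and without it over 244 codons, of which 38 follow the new junction. The call was lost without Control replicate 2 (FDR 0.0368), the deepest position in Control.

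Prdm2, a zinc finger protein with a PR domain that methylates histone H3, had the largest difference of the called exons. Its exon, chr4:143131710-143136099 on the minus strand, is exon 8 of 10 with 4390 bases and 85.6% of the coding sequence. Skipping reads numbered 0, 1 and 0 in Control and 11, 8 and 12 in cKO, beside 41, 62 and 25 inclusion reads in Control and 24, 35 and 39 in cKO. Inclusion was 100%, 67.1% and 100% in Control and 6.7%, 12.6% and 9.6% in cKO, so that the conditions stood far apart although the counts were few. The means were 89.0% ± 19.0 and 9.63% ± 2.94 (SD, n = 3 each), and the FDR was 0.00908. The exon length is no multiple of 3, and the frame would stop after 262 codons in place of 1709, with 56 codons behind the junction. This call sat at the edge of the limit: leaving out Control replicate 1, 2 or 3 or cKO replicate 1 or 3 gave an FDR of 0.0269 to 0.0694, and taking 1 event per exon gave 0.0111.

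The other falls were smaller and had more reads. Eefsec is the elongation factor that brings the selenocysteine tRNA to the ribosome, and its exon 5 of 7 (chr6:88297577-88298236, minus strand, 660 bases, all coding) holds 37.7% of the coding sequence. Inclusion was 94.0%, 96.7% and 93.0% in Control and 80.0%, 86.9% and 81.1% in cKO, with 11, 8 and 12 skipping reads against 39, 32 and 59. All cKO libraries lay below all Control libraries, and the means were 94.6% ± 1.89 and 82.7% ± 3.73 (SD, n = 3 each, FDR 0.00115). Since 660 is a multiple of 3, the frame runs on after skipping, over 363 codons in place of 583. Without Control replicate 2 the FDR was 0.0536 and without cKO replicate 3 it was 0.024.

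In Pcmtd1, which carries a protein-L-isoaspartate methyltransferase domain, exon 2 of 6 (chr1:7120194-7120615, plus strand, 422 bases) holds the start codon and 28.7% of the coding sequence. Inclusion was 80.0%, 86.5% and 86.3% in Control and 78.3%, 65.8% and 65.1% in cKO. The highest cKO library lay just below the lowest Control library, and the means were 84.3% ± 3.71 and 69.7% ± 7.45 (SD, n = 3 each, FDR 0.00514). The FDR was 0.0753 and 0.0204 without Control replicates 2 and 3, 0.0468 and 0.0925 without cKO replicates 2 and 3, and 0.0239 with all libraries thinned to the shallowest.

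The exons called with higher inclusion differ in kind. Tmem164, a transmembrane protein, showed inclusion of 6.8%, 9.6% and 7.9% in Control and 20%, 19.7% and 19.2% in cKO for exon 2 of 7 (chrX:142682291-142682949, plus strand, 659 bases), which holds the start codon and 43.6% of the coding sequence. Here the conditions did not overlap, with means of 8.13% ± 1.43 and 19.6% ± 0.381 (SD, n = 3 each, FDR 0.000572). Without Control replicate 1 the FDR was 0.0198, and without cKO replicate 3 it was 0.0112. In Arhgef1, the exchange factor that links G protein coupled receptors to RhoA, the exon of 832 bases (chr7:24918520-24919351, plus strand) belongs to a transcript annotated as retaining an intron, with no coding sequence. Inclusion was 66.6%, 62.4% and 52.3% in Control and 63.9%, 73.8% and 75.3% in cKO, so that the conditions overlapped, and the means were 60.4% ± 7.37 and 71.0% ± 6.18 (SD, n = 3 each, FDR 0.000206). The difference fell short of 10 points without Control replicate 3 (-6.51), cKO replicate 2 (-9.2) or cKO replicate 3 (-8.43, FDR 0.0526).

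**Figure D1:**
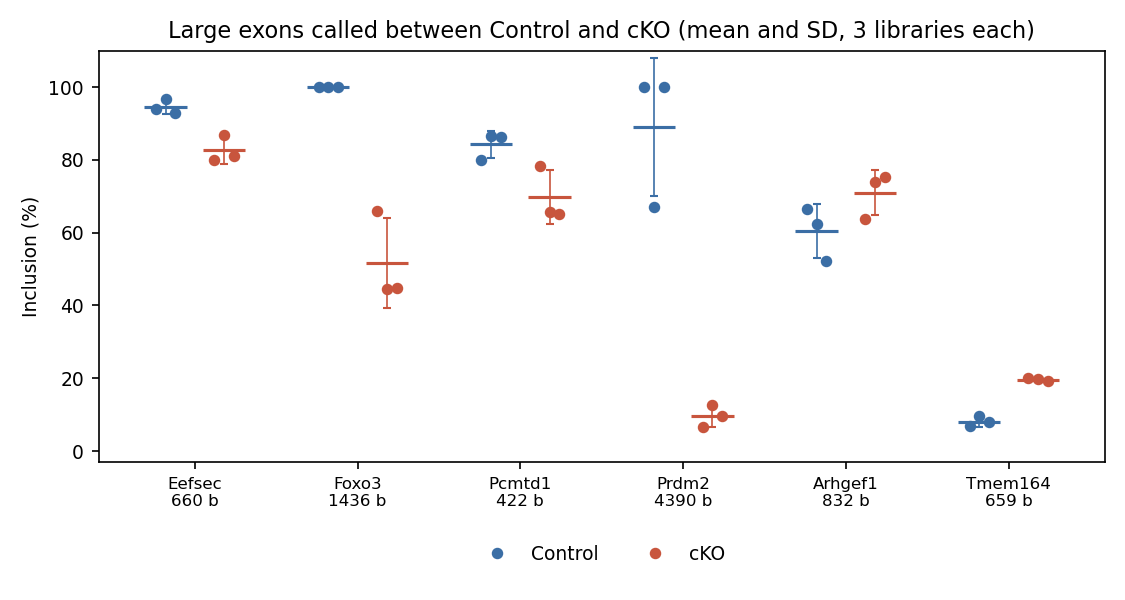
Inclusion in percent (vertical axis) of the 6 called large exons, with a point per library, the mean as a line and the SD as a bar, Control in blue and cKO in red. Control and cKO points are apart in all but Arhgef1, and the exon of Prdm2 went from 89.0% to 9.63%.

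Among the called exons, Arhgef1 had the most skipping reads (1549 over all libraries) and Prdm2 the fewest (32). With 3 libraries against 3, the two-sided exact permutation test of a single event cannot go below p = 0.1, and it gave 0.1 for Foxo3, Prdm2, Eefsec, Pcmtd1 and Tmem164 and 0.2 for Arhgef1. The calls also rest on the model of spread, in which the dispersion of an event is drawn strongly towards a prior of 2.397, from 17.4 in the case of Arhgef1. Of the alternatives, limma on the logit of inclusion called none of the large events, nor any of all events. The fit of edgeR with a library block called none of the large and 2 of all events. Of 1157 large events, the quasi-binomial model gave 98 with lower and 14 with higher inclusion an unadjusted p under 0.05. These numbers were 96 and 19 with limma and 73 and 9 with edgeR. Of all 39173 tested events they were 2799 and 639, 2428 and 774, and 1881 and 373 in the same order.

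Of the gene lists examined, that of RNA processing and RNA binding genes had the most large exons past an FDR of 0.05, in Eefsec, Ythdf2 and, with 2 exons, Thrap3. Of 33 tested exons in 26 such genes, 4 fell and 0 rose, where 1.51% of all events fell, and in 9 (27.3%) all cKO libraries lay below Control, beside 8.96% of all events and 10.1% of the large exons. The median difference was 2.56 points, beside 0.18 over all tested events and 0.81 over the 913 large exons. Ythdf2 reads the mark m6A on mRNA and speeds its decay, and its exon of 1584 bases holds 91.2% of the coding sequence. Inclusion was 75.2%, 73.4% and 71.4% in Control and 53.9%, 62.4% and 61.1% in cKO, a fall from 73.3% ± 1.89 to 59.1% ± 4.56 (SD, n = 3 each, FDR 0.0116) that missed the call only by its FDR. Thrap3, a splicing and mRNA export factor rich in arginine and serine, has neighbouring large exons of 903 and 696 bases. Their inclusion fell from 99.0% ± 0.977 to 95.4% ± 2.43 (FDR 0.0113) and from 96.4% ± 2.82 to 91.8% ± 1.8 (FDR 0.0229, n = 3 each). Eefsec, described above, is in the same list.

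Exons of other RNA binding proteins also passed an FDR of 0.05 and were picked out after their values were seen. Hnrnpc, which packs nascent RNA and binds uridine tracts, has an untranslated exon of 530 or 1223 bases, depending on the 5' splice site at its end. The form of 530 bases fell from 20.9% ± 2.2 to 15.2% ± 0.837 (SD, n = 3 each, FDR 0.00112), with 18.7%, 23.1% and 21% in Control and 14.3%, 16% and 15.2% in cKO. For the long form the fall was from 10.8% ± 1.74 to 8.01% ± 1.19 (FDR 0.0219), and the events share their skipping reads. Mbnl1, a splicing regulator, had an exon of 1049 bases at 41.4% ± 4.0 in Control and 36.4% ± 5.01 in cKO (FDR 0.0297), with overlapping conditions.

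Zinc finger transcription factors held 27 tested large exons in 22 genes, with a median length of 1634 bases. Besides Prdm2, the exon of Zhx2, a repressor with zinc fingers and homeoboxes, fell at an FDR under 0.05, where 1.51% of all events fell. In 7 of the 27 exons (25.9%) all cKO libraries lay below Control, beside 8.96% of all events and 10.1% of the large exons. The Zhx2 exon has 2720 bases and holds all of the coding sequence. Inclusion was 80.6%, 84.0% and 81.1% in Control and 36.0%, 68.7% and 50.4% in cKO, with means of 81.9% ± 1.88 and 51.7% ± 16.4 (SD, n = 3 each, FDR 0.0222). In Zfp106, a zinc finger protein that binds RNA, inclusion of the exon of 2169 bases was 89.0%, 100% and 58.0% in Control and 39.8%, 58.1% and 54.8% in cKO, and the test did not pass (FDR 0.112).

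Chromatin regulators held 41 tested large exons in 32 genes, of which 1 fell at an FDR under 0.05 (1.51% of all events) and 7 (17.1%) lay below Control in all cKO libraries (8.96% of all events, 10.1% of large exons). The fall is in Zzz3, a subunit of the ATAC histone acetyltransferase complex, whose exon of 1556 bases holds the start codon and 55.9% of the coding sequence. Inclusion was 45.3%, 46.6% and 53.7% in Control and 38.7%, 28.3% and 19.6% in cKO (means 48.5% ± 4.49 and 28.9% ± 9.6, SD, n = 3 each, FDR 0.0208). The same exon with another upstream partner gave 51.2% ± 18.6 and 21.4% ± 3.2 (FDR 0.0139). Kansl1, a scaffold of the NSL acetyltransferase complex, had 95.0% ± 1.74 in Control and 76.8% ± 10.1 in cKO (FDR 0.169), and Phf3, which binds the tail of RNA polymerase II, had 90.1% ± 10.8 and 53.4% ± 12.1 (FDR 0.195).

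In the list of small GTPase and T cell signaling genes, with 27 tested exons in 18 genes, 2 exons fell and 1, that of Arhgef1, rose at an FDR under 0.05, beside 1.51% and 0.281% of all events. In 7 exons (25.9%) all cKO libraries lay below Control, beside 8.96% of all events. Arap2, which switches off Arf proteins, had no skipping read in Control and 0, 17 and 15 in cKO for the exon of 1041 bases. Inclusion was 100%, 79.5% and 79.0% in cKO, so that the first cKO position matched Control (100% and 86.2% ± 12 on average, n = 3 each, FDR 0.0119). Sipa1l1, which switches off Rap, had 92.0%, 88.1% and 79.9% in Control and 52.7%, 63.2% and 59.5% in cKO for its exon of 1838 bases (means 86.7% ± 6.17 and 58.5% ± 5.35, SD, n = 3 each, FDR 0.019). All cKO values were below all Control values. Ripor2, an inhibitor of RhoA outside the list and picked out after its values were seen, fell from 99.8% ± 0.16 to 97.8% ± 1.33 (n = 3 each, FDR 0.0105). The event of this Ripor2 exon with the most reads is another one, and it did not pass an FDR of 0.05.

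Genes of p53, apoptosis and the DNA damage response held 18 tested large exons in 16 genes, and of these Foxo3 was the only fall past an FDR of 0.05, beside 1.51% of all events. In Polk, the translesion polymerase kappa, no Control library had a skipping read for the exon of 915 bases and cKO had 5, 2 and 8 (82.5% ± 9.86 in cKO, SD, n = 3, FDR 0.454). Hipk3, a nuclear kinase, had 0, 5 and 4 skipping reads in cKO and none in Control (FDR 0.52). Interferon-induced and innate sensing genes held 20 exons, of which 3 (15%) had cKO below Control, beside 8.96% of all events and 10.1% of the large exons. Trim30d, of the TRIM family, had inclusion of 68.2%, 72.0% and 51.8% in Control and 36.3%, 42.1% and 35.6% in cKO for its exon of 476 bases, and did not pass (64.0% ± 10.8 and 38.0% ± 3.57, SD, n = 3 each, FDR 0.0603). 9930111J21Rik2 had 100% in Control and 89.9% ± 4.95 in cKO (FDR 0.239). The exon of Ifi203, an interferon-induced DNA sensor, gave different values with different neighbours: 1.84% ± 0.442 and 1.21% ± 0.218 (FDR 0.57) in the event with the most reads, and 33.7% ± 7.79 and 14.5% ± 3.13 (FDR 0.0176) in another.

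Mitosis and chromosome segregation genes held 9 tested large exons, none past an FDR of 0.05 and none with cKO and Control libraries apart. At that FDR 1.51% of all events fell, and all cKO libraries lay below Control in 8.96% of all events and 10.1% of the large exons. The 9 exons are too few to be set apart from these shares. Tacc1, a centrosome and spindle protein, had 69.9% ± 28.2 and 47.2% ± 27.3 (SD, n = 3 each, FDR 0.462), Haus6 of the augmin complex 100% and 95.8% ± 7.29, and the centriole protein Cenpj 87.1% ± 3.46 and 84.3% ± 10.9. Further exons at an FDR under 0.05, outside these lists and picked out after their values were seen, were those of Erc1, with 0, 25 and 2 skipping reads in cKO and 0 in Control (FDR 0.0113), of the forkhead repressor Foxn3 (99.2% ± 0.154 to 94.7% ± 1.17, FDR 0.036) and of the interferon receptor chain Ifnar1 (99.4% ± 0.549 to 90.9% ± 5.62, FDR 0.0429). Stk11, the kinase LKB1 upstream of AMPK, was the exception that rose, from 1.7% ± 0.213 to 3.49% ± 0.0614 (n = 3 each, FDR 6.66e-05), a rarely used exon of 1310 bases that holds a stop codon.

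**Figure D2:**
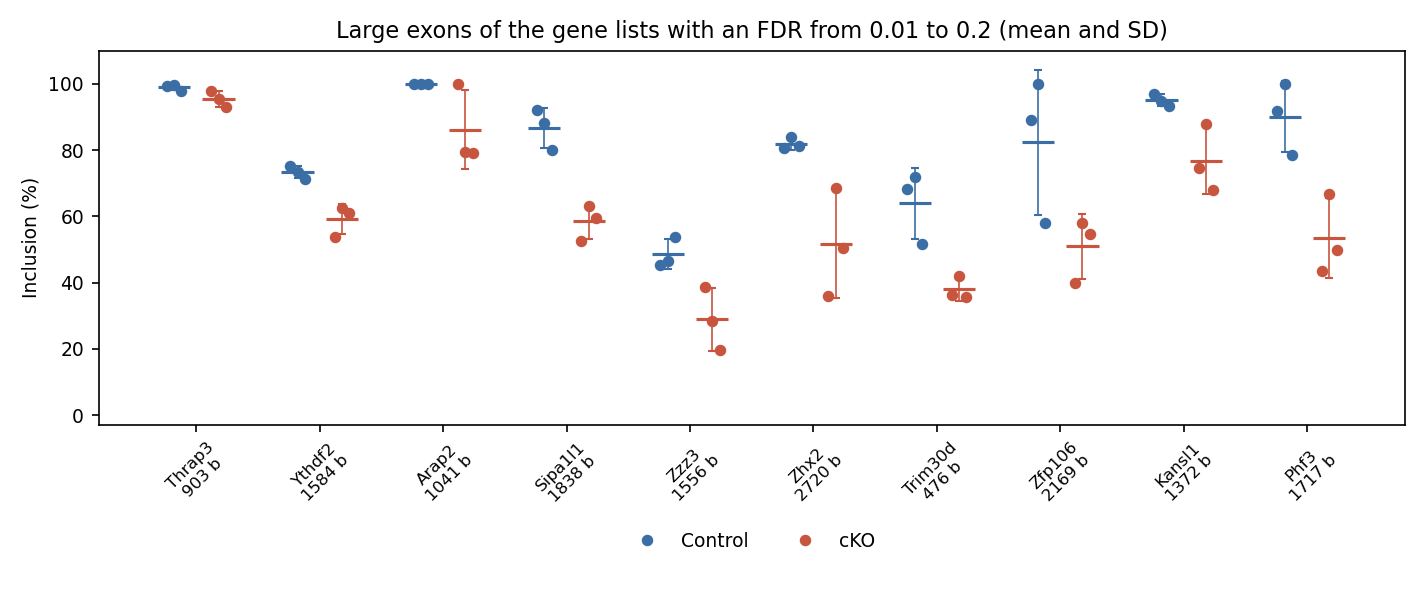
Inclusion in percent (vertical axis) of the uncalled large exons among the 3 of smallest p in each gene list, for an FDR from 0.01 to 0.2, with a point per library, the mean as a line and the SD as a bar. Ythdf2, Sipa1l1, Zzz3, Zhx2, Trim30d, Kansl1 and Phf3 have all cKO points below all Control points, while Thrap3, Arap2 and Zfp106 overlap.

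The difference on the inclusion scale grew with exon length. Mean inclusion over the tested events under 400 bases was 88.7%, 88.75% and 88.8% in the Control libraries and 88.2%, 87.9% and 88.0% in cKO. Over the large events it was 87.4%, 87.8% and 87.0% in Control and 84.9%, 85.1% and 85.1% in cKO. Over the 101 events of 2000 bases or more it was 85.5%, 83.9% and 82.75% in Control and 76.0%, 76.6% and 76.9% in cKO. In each of these classes the conditions did not overlap, and the gap was widest for the longest exons. The median difference was 0.17 points under 400 bases, 0.68 from 400 to below 1000, 1.30 from there to below 2000 and 4.32 from 2000 bases on. Differences of at least 10 points towards skipping in cKO were found in 2.34% of the events under 400 bases, 6.1%, 15% and 30.7% of those in the longer classes, and opposite ones in 0.747%, 2.47%, 2.8% and 3.96%.

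**Figure D3:**
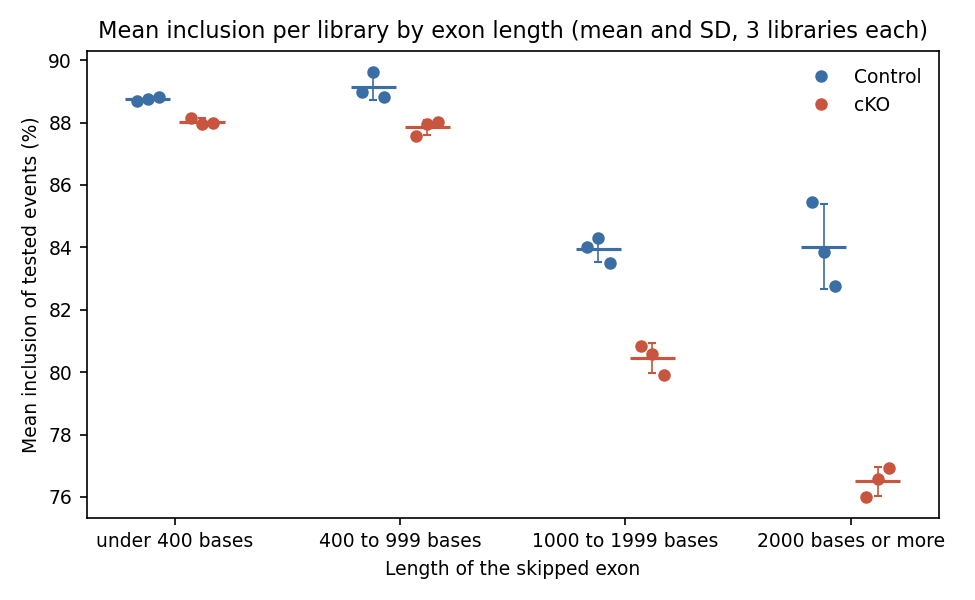
Mean inclusion in percent over all tested events (vertical axis, not from 0) by exon length class (horizontal axis), with a point per library and the mean and SD of 3 libraries per condition. Control and cKO are apart in each class, and for exons of 2000 bases or more the 3 cKO points sit at 76.0% to 76.9% and the Control points at 82.75% to 85.5%.

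**Figure D4:**
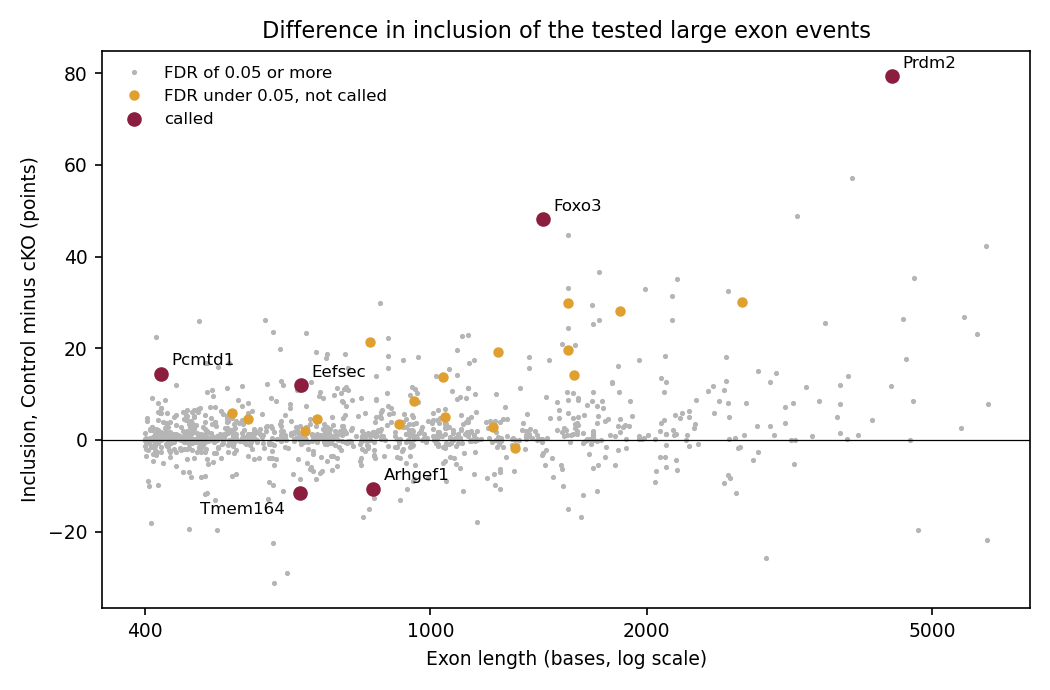
Difference in inclusion, Control minus cKO in points (vertical axis), against exon length in bases (horizontal axis, log scale) for the 1157 tested large events, with events at an FDR under 0.05 in yellow and called events in dark red. Most points lie close to 0, and those above 25 points are mainly exons of more than 1000 bases, few of which passed the test.

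On a scale free of exon length the medians of the classes lay closer together, but the upper parts did not. A skipping read counts for more in a long exon, because inclusion reads are divided by the length of the exon and skipping reads only by that of a junction. The ratio of skipping to inclusion reads in cKO over that in Control does not depend on these lengths. Among events that averaged 5 or more reads of their rarer form, the median log2 of this ratio was 0.38 in 208 large events (quartiles -0.18 and 1.13) and 0.37 in 7630 shorter ones (quartiles -0.17 and 0.91). In exons of 2000 bases or more, 23 events had this many reads, with a median of 0.40 and an upper quartile of 1.72. A log2 ratio over 1 was found in 21.4% of the shorter and 30.3% of the large events, and one under -1 in 4.57% and 3.37%. Among the same events, 8.85% of those under 400 bases and 39.1% of those of 2000 bases or more were at least 10 points lower in cKO. Control inclusion of these events had a median of 65.9% for large and 87.4% for shorter exons. The read limit is a mean over both conditions, so that an event can pass through its cKO reads alone, as those of Foxo3 and Arap2 did, and the values are a description of the events that passed.

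**Figure D5:**
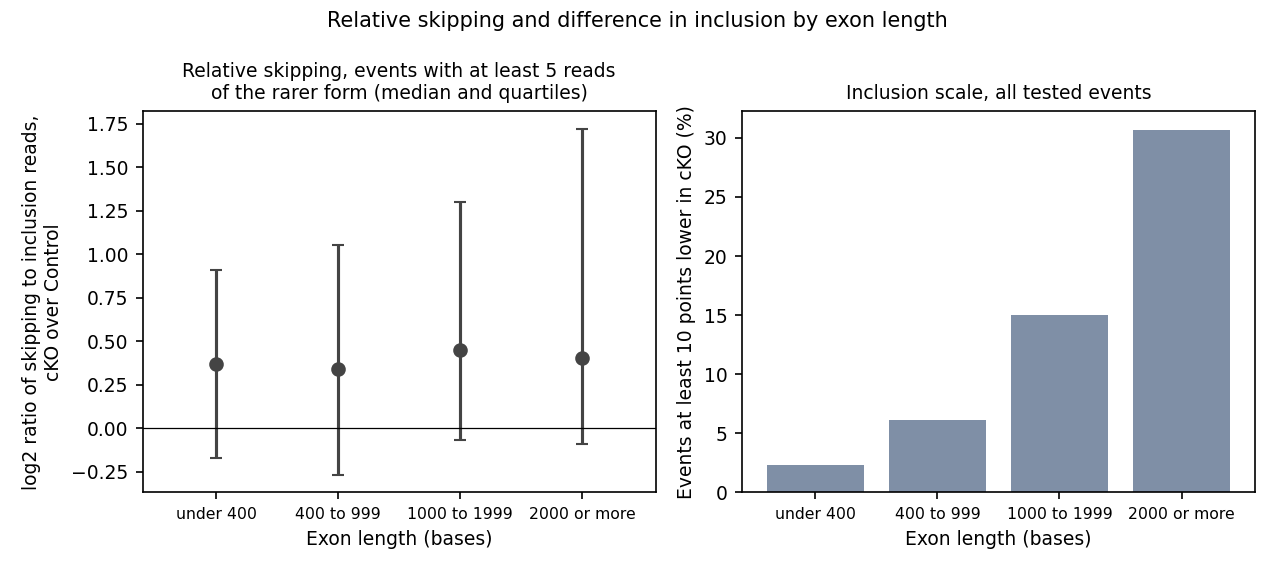
Left, log2 ratio of skipping to inclusion reads in cKO over Control (vertical axis, median with quartiles) for events that average 5 or more reads of their rarer form, and right, share of all tested events at least 10 points lower in cKO in percent (bars from 0), both by exon length class in bases. The medians on the left lie between 0.34 and 0.45 and the upper quartiles go from 0.91 to 1.72. The bars on the right, which cover more events, go from 2.34% to 30.7%.

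In most large exons skipping was rare. Every tested event, large or shorter, had a skipping read in some library, so an event without any in Control must have some in cKO. Inclusion in Control was at least 90% in 887 of the 1157 events (76.7%) and at most 10% in 64, and the median number of skipping reads per library was under 1. No skipping read was found in any Control library but some in cKO in 413 large events (35.7%), as for Foxo3, Arap2, Polk and Hipk3, and the reverse in 132 (11.4%). For shorter exons these shares were 31.5% and 12.8%. With every library thinned to the reads of the shallowest, the large events became 370 (32%) and 141 (12.2%), and the shares for shorter exons 28.2% and 13.6%. Summed over the large events, there were 38.3, 37.1 and 39.6 skipping reads per 1000 inclusion reads in Control and 45, 41.6 and 41.6 in cKO, with no overlap. For exons of 2000 bases or more these sums were 28.6, 32.3 and 24.2 in Control and 20.3, 26.4 and 30.9 in cKO, which overlap.

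The longest tested exons show how few reads decide a value. Son, a splicing cofactor of nuclear speckles, has the longest, exon 3 of 12 with 5970 bases and 80.3% of the coding sequence. Inclusion was 99.1%, 98.4% and 98.7% in Control and 83.8%, 96.0% and 92.7% in cKO, from 1, 2 and 1 skipping reads against 20, 6 and 11 and 3233 to 5930 inclusion reads per library, and the test did not pass (98.7% ± 0.331 and 90.8% ± 6.3, SD, n = 3 each, FDR 0.113). Bod1l, which protects stalled replication forks, had 34.4% in Control 2 from 2 skipping and 43 inclusion reads and 100% in all others. Hivep1, a zinc finger factor, had no skipping read in Control and 1, 4 and 1 in cKO, which made inclusion 59.5%, 41.1% and 72.2% (FDR 0.687). Tcf20, a transcriptional cofactor, had 100% in Control and 76.9% ± 20.6 in cKO from 3 skipping reads. Rai1, a chromatin binding factor, had 60.5% ± 34.3 and 33.7% ± 15.3 from 8 skipping reads (FDR 0.776).

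The exons at the length limit were mostly included in both conditions. Those of exactly 400 bases in Nlrc5, Saraf and Traf3ip3 had inclusion of 100%, 99.8% and 100% in Control and 98.5%, 99.8% and 99.9% in cKO. The nearest below the limit, with 399 bases, in Bank1, Fam234b and Srpk1, had 91.0%, 98.6% and 99.8% in Control and 97.9%, 100% and 100% in cKO.

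By content, 624 of the 1390 large events concern exons that are all coding in the annotated transcript, 459 exons with coding and untranslated bases, 56 untranslated exons and 240 exons of transcripts without a coding sequence, while 11 were in no transcript of the annotation. Events of exons without coding sequence had cKO below Control in 4.89% and above in 3.8% of 184 tested events, and all-coding exons in 10.7% and 1.68% of 535. Over all large events these shares were 9.77% and 2.42%, and over all tested events 8.96% and 2.33%. Exons with the start codon, as in Pcmtd1, Zzz3, Sipa1l1 and Arap2, were at least 10 points lower in cKO in 53 of 333 events (15.9%) and higher by as much in 5 (1.5%). Such differences were found in 10.5% and 2.68% of all large events and in 2.58% and 0.804% of all tested events. A length that is a multiple of 3 was found in 396 of the tested large events, of which 1 (Eefsec) was called lower. Of the 761 others, 3 were called lower and 2 higher, where 0.406% and 0.0893% of all tested events were called lower and higher. The shares with cKO below Control were 10.4% and 9.46%, and 9.88% and 8.34% in the same classes under 400 bases.

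Skipping is annotated for 259 tested large events (234 exons), and there Control inclusion had a median of 70.3%, beside 99.6% in the 898 other events. The junctions that join the neighbours of the Foxo3 and Prdm2 exons are in no annotated transcript, and those of Eefsec, Pcmtd1, Tmem164 and Arhgef1 are. Of the 1390 large events, 880 overlap an annotated first or last exon of another transcript, whose reads then count as inclusion, Foxo3, Eefsec, Tmem164 and Arhgef1 among them but not Prdm2 and Pcmtd1. In the 401 tested events without such an overlap, cKO lay below Control in 11% and above in 2.49%, close to the 9.77% and 2.42% of all large events.

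Large exons with long introns on both sides moved mostly towards skipping, as shorter exons did. The shorter of the flanking introns had at least 1238 bases, the median of all tested events, in 736 large events, of which 4 were called lower and 0 higher and 18 fell and 0 rose at an FDR under 0.05. In the 421 with a shorter intron, 0 were called lower and 2, Tmem164 and Arhgef1, higher, and 2 fell and 3 rose. The shares with cKO below Control were 11.7% and 6.41%, and those above 1.9% and 3.33%. Exons under 400 bases split the same way, with 10.6% and 7.34% below Control and 1.5% and 3.14% above. Over all tested events 8.96% lay below and 2.33% above. Of 18854 shorter events next to long introns, 107 were called lower and 2 higher, and 341 fell and 18 rose at an FDR under 0.05. Of 19162 next to a short one, 48 and 31 were called, and 232 fell and 89 rose. The split is thus not particular to large exons. The Foxo3 exon lies between introns of 76914 and 10170 bases, that of Prdm2 between 6024 and 19932, and that of Arhgef1 between 519 and 279.

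Several large exons recur in the other deposited event tables, which share reads with the skipped exon table. Among mutually exclusive exons, 465 tested events hold a tested large exon and 3 were called, beside 0.25% of all. A share in these events is that of the large exon against its partner exon, not that of all transcripts. The Eefsec exon had a share of 94.5% in Control and 83.6% in cKO against a neighbouring exon (FDR 0.000978). With other partners its share was 0.2% and 1.1% (FDR 0.0194, higher in all cKO libraries) or 0.2% and 0.8% (FDR 0.0972), and in the events left it was 26.9% to 33.4% in Control and 25.9% to 32.4% in cKO (FDR 0.378 or more). The Thrap3 exon of 903 bases had a share of 60.3% in Control and 45% in cKO against its partner (FDR 1.89e-08). The exon of Zhx1, a relative of Zhx2, went the other way, from 31.8% to 51.6% (FDR 0.00243). Among alternative 3' splice sites, 98 events hold a large exon and 2 were called, beside 0.584% of all. In Arhgef1 the site that makes the exon of 832 bases was used in 46.5%, 49.1% and 47.6% in Control and 61.3%, 58.7% and 61.0% in cKO (FDR 2.26e-10), with the conditions apart here. In Pitpnm1, a phosphatidylinositol transfer protein, the site that makes the long form fell from 77.8% ± 17.8 to 50.4% ± 3.49 (SD, n = 3 each, FDR 0.00485). None of 101 events at alternative 5' splice sites was called (lowest FDR 0.0203, beside 1.08% of all events called), and none of 18 retained introns (lowest FDR 0.158, beside 0.181% of all).

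Few genes with a large exon passed the test for a change in RNA level. Of the 807 genes with a tested large exon, 796 were tested for expression, and 1 was called higher in cKO (Gucy1a1) and 2 lower (Patj and Rnaset2b, all named after their values were seen), beside 0.445% and 0.118% of all 11001 tested genes, with calls made at an adjusted p below 0.05 for log2 changes beyond 1 in size. Among the 102 genes with a large exon at least 10 points lower in cKO, none was called and 1 had an adjusted p under 0.05 (limma), and the median log2 change was -0.02, beside 0.01 over all genes. That gene was Polk, with 1455, 1516 and 1401 normalized counts in Control and 2587, 3172 and 2699 in cKO, a log2 change of 0.95 ± 0.11 (SE, adjusted p = 0.0198), and thus a rise in RNA beside the skipping reads given above. In the expression table the libraries are named, and their order need not be that of the splicing lists. Foxo3 had 5306, 7211 and 4686 in Control and 5096, 7250 and 7294 in cKO (log2 change 0.20 ± 0.20), and Prdm2 1891, 1867 and 1492 and 1430, 1951 and 1909 (0.01 ± 0.16). Eefsec (-0.08 ± 0.09), Arhgef1 (-0.26 ± 0.32) and Tmem164 (-0.27 ± 0.29) did not pass either. Pcmtd1 was the called exon's gene with the clearest gap, with 7723, 7848 and 8120 normalized counts in Control and 6486, 6611 and 6396 in cKO, but missed the threshold (-0.28 ± 0.07, adjusted p = 0.142). Traf3ip3 fell by 0.61 on the log2 scale (± 0.09, adjusted p = 0.0322), with its exon of 400 bases at 100% and 99.9%.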

How the data were processed

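The authors trimmed paired reads with cutadapt, aligned them to the mouse genome (GRCm38/mm10) with STAR, counted reads per gene, and ran DESeq2 and rMATS. The deposited rMATS tables hold raw counts of inclusion and skipping reads per event, on junctions and in the exon, as 3 values per condition. The deposited expression signal is the count per gene divided by a DESeq2 size factor, and 100% of its values came back to whole reads within 0.01. The study refers its gene IDs to an Ensembl release on GRCm38, and the release used for counting is not stated. The p-values, FDRs, inclusion differences and fold changes of the authors' own comparisons are also deposited and were not used.

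From the counts, inclusion was computed with the effective lengths in the tables (149 bases for skipping, exon length plus 149 for inclusion). A quasi-binomial model was fitted to every event that averaged 20 or more reads in each library of both conditions. Its dispersion was moderated with limma 3.58.1 in R 4.3.3, with a prior from events averaging 5 or more reads of the rarer form and a floor of 1. The p-values were adjusted over all events by the Benjamini-Hochberg method. The prior, 2.397 with 66.01 degrees of freedom, outweighs the spread between an event's own libraries. The own dispersion was 17.4 for the Arhgef1 event and 35.5 for that of Mbnl1, so their FDRs reflect this spread only in part. Expression was tested with limma with a trend on log2(normalized count + 1). The 11001 genes tested have a symbol and averaged 100 or more in a condition. The added 1 understates fold changes where counts are low. DESeq2 1.42.0 and edgeR 4.0.16 served as alternatives. The fits were tested on simulated data. For splicing the simulated spread was drawn around this same prior, so the run cannot test events of much wider spread. The numbers of replicates and reads limit precision, and each value covers counting error and library spread only.

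Exons were named if called (1 event per exon, the event with the most reads), if among the 5 longest tested, if among the 3 of smallest p in a gene list, or if among the 3 nearest the length limit on each side. The members and lists were chosen with earlier results of these data known. Exon content came from GENCODE M21 on GRCm38, and the sequences from its transcripts. The marker list of 1 further cell type is not reported here.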

Additional observations from a re-analysis of the deposited data

How the results depend on the processing

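No called exon changed direction under any alternative run. The uncalled exon of Cenpj did: its 2.8 points became -3.32 (without cKO replicate 2) to 7.03 (without cKO replicate 1) with 1 library left out, and -1 with thinned reads. That of Saraf, 0.0712 points, became -0.0246 (without cKO replicate 1) to 0.154 (without cKO replicate 3), and -0.0165 thinned. The 4 falls and 2 rises called among large exons became 11 and 2 when only events averaging 5 or more reads of the rarer form were tested, 16 and 3 with the dispersion prior taken over all tested events, and 8 and 2 with a trend in the prior. The calls over all events went from 159 falls to 217 and 309 under the former pair of settings. limma on the logit of inclusion called 0 and 0 large exons and edgeR with a library block 0 and 0, and over all events they called 0 and 2 falls. The cause of these shifts was not tested. Leaving out 1 library at a time gave 0 to 7 falls (0 without Control replicate 2, 2 without cKO replicate 3, 7 without cKO replicate 1) and 0 to 2 rises (0 without cKO replicate 3, 1 without Control replicate 1, Control replicate 3 or cKO replicate 2). The median difference of 0.94 points became 2.44 for events with at least 5 reads of the rarer form, and 0.44 to 0.96 without 1 library, with 0.44 without cKO replicate 2 and 0.59 without cKO replicate 3. With reads thinned to the shallowest library, an alternative chosen after seeing the data, 3 falls and 2 rises were called and the median was 0.68.

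Of the genes with a large exon, 1 was higher and 2 were lower in expression. With a pseudocount of 10 these were 1 and 0, with no filter on low values 1 and 1, and with DESeq2 on whole reads 3 and 5. Without 1 library they were 0 to 2 higher and 0 to 1 lower, with 2 and 1 without cKO replicate 1 and none lower without any of the other libraries. No paired analysis was possible because the labels number the libraries through both conditions with no shared numbers, and the splicing lists carry no library names. In the longest exons a few skipping reads set the inclusion value.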
